A study of Mus musculus with 12 samples.

Results

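Crym and 7 genes of thyroid hormone transport, activation and response (Slco1c1, Dio2, Dio3, Thra, Thrb, Klf9 and Hr) were followed in the cortex of lupus-prone mice. Members were all non-control probes that carry one of these 8 gene names, which gave 12 of the 39429 non-control probes on the array, or 8 of its 29608 gene names. The set was chosen by the Crym signal, which was among the largest decreases in MRL/lpr against Fn14ko, so that contrast is given for the 8 genes as a description, without a test. Cortex RNA came from 12 adult female mice, 4 in each of 3 groups, which were in diestrus and close to one another in age. MRL/lpr mice carry the lpr loss-of-function mutation of Fas on the MRL background and develop a lupus-like disease with behavioral deficits. Fn14ko mice, labelled Fn14koMRL, are MRL/lpr mice that in addition lack Fn14, the receptor of the cytokine TWEAK, so both of these groups share the lpr mutation, and they were littermates of one colony. MRL/+ mice, labelled MRL/MpJ, share the MRL background without the mutation and came from another supplier, so colony and lpr genotype cannot be told apart. The comparisons of MRL/lpr and of Fn14ko with MRL/+ share mice with the contrast on which Crym was chosen, and they share the MRL/+ mice with each other.

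Thyroid hormone reaches brain cells through transporters such as Slco1c1 (also called Oatp1c1), which carries the prohormone T4 across the blood-brain barrier and into astrocytes. Dio2, the type 2 deiodinase of astrocytes, converts T4 into the active hormone T3, and Dio3, the type 3 deiodinase found mainly in neurons, inactivates both. T3 acts through the nuclear receptors Thra and Thrb, and the transcription factor Klf9 and the corepressor Hr (hairless) are well-known target genes in brain. Crym encodes mu-crystallin, a cytosolic protein that binds T3 in the presence of NADPH and also has ketimine reductase activity. Its mRNA is known from neurons of deep cortical layers, hippocampus and striatum.

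Each probe is a 60-base oligonucleotide, and the probes below are those on which the results turn: the only probe of Crym, the only probe of Hr, and the probes of the receptors, which did not move together. Shown are the first 30 bases, read from the array files, except for the Thra probe that spans a splice junction, which is given whole, because its match covers 807 bases of genome. In mm9, the build of the probe annotation, Crym was read at chr7:127329970-127330029 and Hr at chr14:70973263-70973322.
Crym A_51_P264695: cccctattcatgtttgtggttggatagcta
Hr A_55_P1958532: gcacacgtgcgccagctcttgttatactta
Thra A_66_P102879: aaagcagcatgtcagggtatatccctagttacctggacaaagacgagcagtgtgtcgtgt
Thra A_51_P475995: aaatggtagtcatcctaactgcactttgga
Thra A_55_P2065537: ctcagggggccagaggctcatcttggaata
Thrb A_52_P532559: aaatcattctcttctaatcttgtccagact
Thrb A_52_P877015: gtcttacggtttttgagatgtagccagtgt
Within the annotated Thra transcripts, the junction probe starts at base 624, A_51_P475995 at base 2264 and A_55_P2065537 at base 5776 of a different transcript model. Thra is known to give a T3-binding and a non-binding receptor from alternative last exons, and which of them each probe reads was not determined. Both Thrb probes lie near the end of 1 transcript, at bases 4280 and 4912.

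RefSeq promoter windows (GRCm38.p6, 250 bases before to 50 after the start) were at hand for 5 of the 8 genes: Slco1c1, Dio2, Dio3, Klf9 and Thrb, the last with 2 starts. They were searched on both strands for AGGTCA, the half-site of thyroid hormone response elements, which 16.3% of all 32851 windows hold, and for the direct repeat of it with 4 bases between (DR4), which 0.0152% hold. One of the 6 windows held the half-site and none held the repeat. The match lay on the plus strand at one Thrb start and is shown in capitals within chr14:17660764-17660793.
Thrb promoter: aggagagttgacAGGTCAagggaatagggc
Such a match is a description of these letters only.

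Signals are background-corrected intensities divided by the median of the retained spots of the same channel, so 1 stands for the median spot, and levels of different probes cannot be set against each other. Mice of the same group shared an array, 2 to each of the 6 arrays, with Cy3 on replicates 1 and 3 and Cy5 on the others. A group's arrays also shared their slide and scan, so slide, scan and group cannot be told apart. In the MRL/+ Cy5 channels only 35.002% and 21.2% of spots were clearly above background (56.6% or more elsewhere), and the called differences given with a value are therefore also given from the Cy3 mice alone, 2 a group. Tnfrsf12a, the gene of Fn14, read 0.739, 0.777, 0.604 and 0.655 in Fn14ko, below the lowest MRL/+ mouse (0.943) and the lowest MRL/lpr mouse (1.38), the direction the label gives, although where the probe lies relative to the deletion is not known. All 12 probes of the 8 genes passed the filter on dim spots, and no spot of theirs was saturated.

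In MRL/lpr cortex, 6 of the 12 probes differed from MRL/+ (limma, Benjamini-Hochberg adjusted over all 22419 probes retained, threshold 0.05), where 15% of all probes did. Dio2, Hr and 1 Thra probe were higher (5.69% of all probes were) and Crym, Dio3 and another Thra probe were lower (9.3% were). In Fn14ko, 0 of the 12 differed from MRL/+ by the same test, against 1.09% of all probes (0.227% higher and 0.865% lower). Other ways of processing gave 0 to 4 of the 12 there, with 0% to 19.6% of all probes. By limma without adjustment 7 of the 12 had p under 0.05 in Fn14ko (23% of all probes) and 9 in MRL/lpr (35.8%), and by the methods' t-test without adjustment 4 had (15.7%) and 5 had (25%). The median log2 difference of the 12 probes from MRL/+ was 0.34 in MRL/lpr and 0.37 in Fn14ko, beside -0.15 and -0.14 over all probes. The MRL/lpr and MRL/+ mice did not overlap at 4 of the 12 probes (24.8% of all probes), with Hr and Dio2 higher (10.2% of all probes) and Crym and the Thra junction probe lower (14.5%). Fn14ko and MRL/+ mice did not overlap at 2 (14% of all probes), Thra A_55_P2065537 and Thrb A_52_P877015, both lower (6.86%), and none was higher (7.13%). With the Cy3 mice alone, 3 of the 12 differed between MRL/lpr and MRL/+ (8.24% of all probes), namely Crym, Hr and the Thra junction probe.

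**Figure D1:**
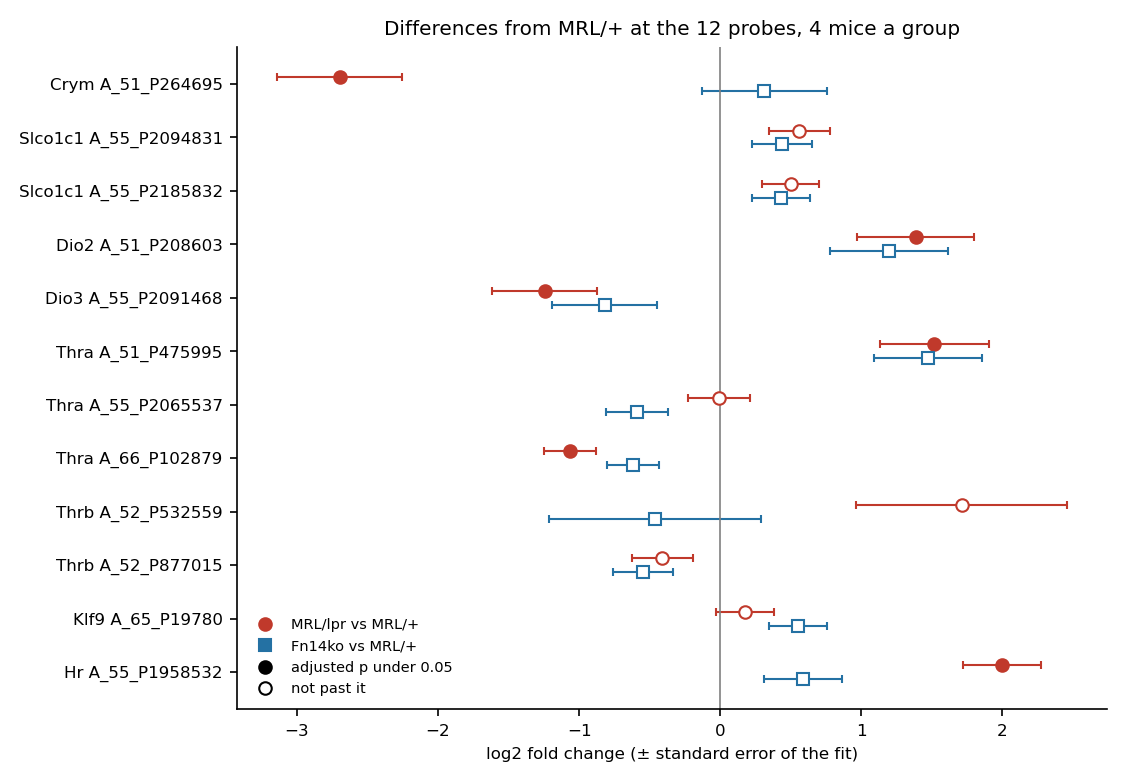
Log2 fold changes of the 12 probes against MRL/+ (x axis) with the standard error of the fit, 4 mice a group, for MRL/lpr (circles) and Fn14ko (squares). Filled symbols passed the adjusted threshold: 6 for MRL/lpr, with Crym at -2.70 and Hr at 2.00 at the ends, and none for Fn14ko.

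Crym had the largest change of the 8 genes. Its signal in MRL/lpr was 1.80, 2.37, 5.09 and 2.81 in replicates 1 to 4. In Fn14ko it was 16.5, 26.5, 17.7 and 33.4, and in MRL/+ it was 21.5, 18.03, 25.8 and 10.9. All 4 MRL/lpr mice lay below the lowest mouse of both other groups, and Fn14ko and MRL/+ overlapped. MRL/lpr averaged 3.02 ± 1.44 (SD, n = 4), Fn14ko averaged 23.5 ± 7.93 and MRL/+ averaged 19.0 ± 6.31. Crym was thus 6.49-fold lower in MRL/lpr than in MRL/+ (log2 fold change -2.70 ± 0.44 SE, limma adjusted p = 0.00235), the 14th lowest of 22419 log2 fold changes. The 2-sided exact permutation p was 0.0286, the smallest that 70 splits of 8 mice allow. Such splits, here and below, treat the mice as independent, although 2 shared each array with different dyes. Fn14ko differed from MRL/+ by 0.31 ± 0.44 (limma adjusted p = 0.642). From the Cy3 mice alone the difference of MRL/lpr from MRL/+ was -2.96 (limma adjusted p = 0.000774). The tests of MRL/lpr against MRL/+ reuse MRL/lpr values by which Crym was chosen, so size, rank and p-values are biased by that choice. Against Fn14ko, the contrast of choice, Crym was lower by 8.06-fold (log2 fold change -3.01), the 5th lowest of all probes. Fewer cells that express a gene and less of its RNA per cell cannot be told apart in such tissue samples.

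**Figure D2:**
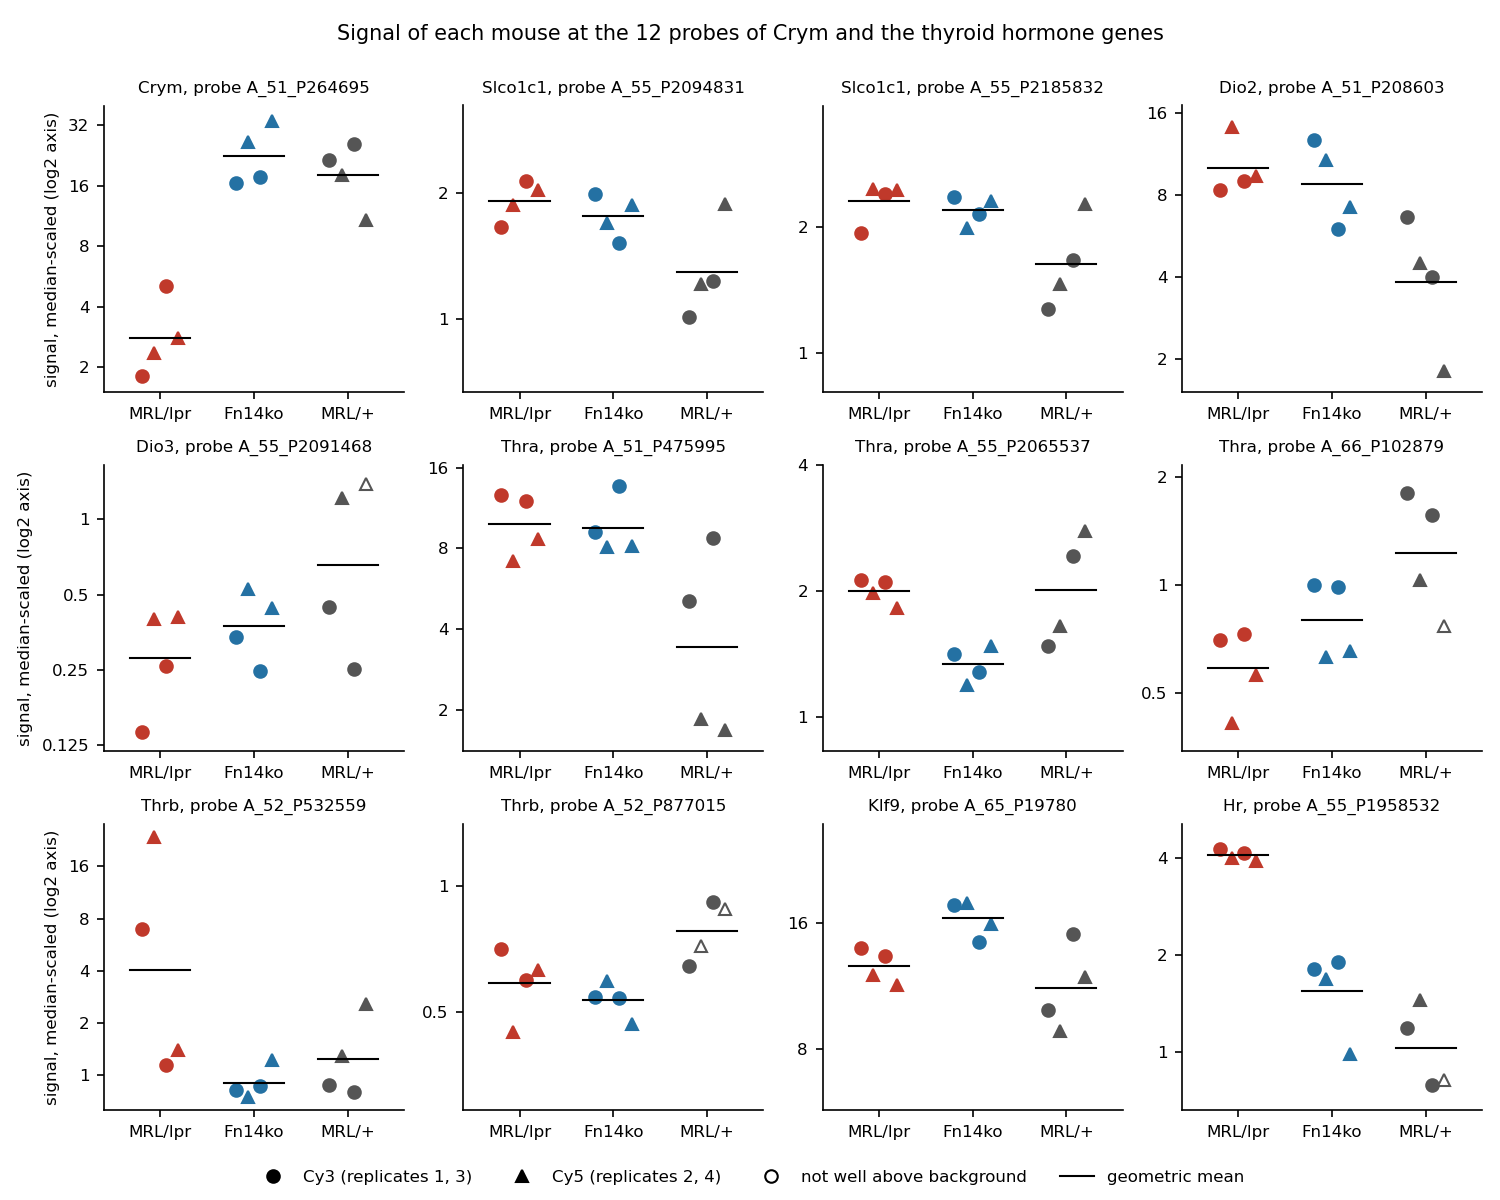
Signal of each mouse at the 12 probes (y axis, scaled to the channel's median spot, log2 axis) in the 3 groups, with circles for Cy3, triangles for Cy5, open symbols for spots not well above background and the geometric mean as a line. The 4 MRL/lpr mice lie between 1.80 and 5.09 for Crym, below all others, and between 3.93 and 4.27 for Hr, above all others.

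The genes most alike to Crym over the 12 mice were sought by the root mean square difference of log2 signals, each probe centred on its own mean. The 5 nearest were Spink8, a serine protease inhibitor known as a marker of hippocampal CA1 (0.340), the growth factor Tgfb2 (0.354), the extracellular matrix protein Vit (0.391), the tetraspanin Tspan18 (0.391) and the desmosomal protein Pkp2 (0.398). The median over all probes was 1.46, and the root mean square of Crym about its own mean was 1.43. Spink8 read 0.168 to 0.520 in MRL/lpr, 1.51 to 3.23 in Fn14ko and 1.18 to 3.03 in MRL/+. Tgfb2 read 0.310 to 0.543, 1.44 to 3.07 and 1.47 to 3.03 in the same groups. Vit, Tspan18 and Pkp2 likewise had every MRL/lpr mouse below all 8 others. The lowest of those 8 values in MRL/+ for Vit, 0.773 in replicate 4, lay under the dark control spots of its channel (0.823). Replicate 4 of MRL/+ was the lowest MRL/+ mouse for Crym, Spink8, Tgfb2, Vit and Pkp2. These genes were picked for their likeness in the same mice, which include the contrast that chose Crym, so the values are a description.

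**Figure D3:**
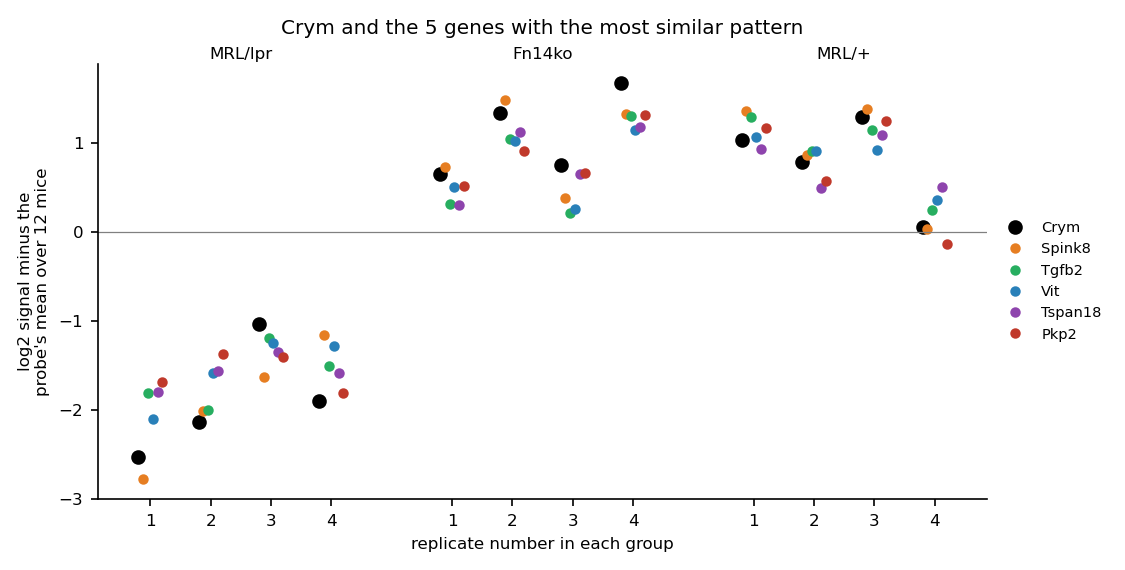
Log2 signal minus the probe's mean over the 12 mice (y axis) for Crym and the 5 genes nearest to it, by group and replicate number (x axis). In all 4 MRL/lpr mice the 6 genes lie below their mean, and in Fn14ko all lie above it.

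Crym is known from hippocampus, deep cortical layers and striatum, and marker lists of these were read beside it. In the hippocampus list (Prox1, Dsp, Wfs1, Zbtb20 and Lct), 3 of 5 genes had probes that passed the filter, and 2 of their 4 probes were lower in MRL/lpr than in MRL/+. Lct averaged 0.523 ± 0.0352 (SD, n = 4) in MRL/lpr against 2.45 in MRL/+ (limma adjusted p = 0.0237), and Zbtb20 A_55_P2108903 averaged 0.276 ± 0.0505 against 1.19 (limma adjusted p = 0.000443). From the Cy3 mice alone these differences were -2.72 (limma adjusted p = 1.6e-05) and -2.19 (limma adjusted p = 0.000491). The summed signal of the list overlapped, at 16.6 to 23.7 in MRL/lpr and 19.9 to 32.6 in MRL/+. Wfs1, a CA1 marker that is also made in cortex, differed by -0.13 (limma adjusted p = 0.756). Among the deep cortical layer markers, 3 of 9 probes were lower (Bcl11b, Etv1 and Tle4) and none higher. Their summed signal was 14.3 to 17.997 in MRL/lpr, 27.3 to 34.2 in Fn14ko and 21.8 to 28.6 in MRL/+. Bright probes weigh most in such a sum: Bcl11b A_51_P171772 read 11.5 and 13.1 in the MRL/+ Cy5 mice, whose sums were 21.8 and 22.3. Rbp4 went the other way, by 0.73 (limma adjusted p = 0.0658), and by 0.80 (limma adjusted p = 0.0719) in the Cy3 mice alone. The called Etv1 and Tle4 probes were dim: in the MRL/+ Cy5 mice the Etv1 probe read no more than the dark control spots in both and the Tle4 probe in 1. From the Cy3 mice alone Bcl11b differed by -1.39 (limma adjusted p = 0.0117), Etv1 by -1.33 (limma adjusted p = 0.458) and Tle4 by -0.60 (limma adjusted p = 0.231). Of the upper layer markers 4 of 8 probes were higher and none lower, with sums of 20.5 to 24.2 in MRL/lpr and 12.6 to 14.8 in MRL/+, and 3 passed in the Cy3 mice alone. Etv1 A_66_P135185 differed by 0.42 (limma adjusted p = 0.464), where the dim Etv1 probe fell by 1.60 on the log2 scale. From the Cy3 mice alone A_66_P135185 differed by -0.21 (limma adjusted p = 0.670), so there the Etv1 probes did not go opposite ways. Of the cortical excitatory neuron probes 3 of 6 were lower and 1 was higher, and sums were 37.8 to 44.1 in MRL/lpr and 51.1 to 76.1 in MRL/+. None of the 12 striatum probes and none of the 6 cerebellum probes passed the test in MRL/lpr against MRL/+, although replicate 1 of Fn14ko had a striatum sum of 194 where the other 11 mice had 14.5 to 47.6. The part of these differences in the Crym result was not tested.

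**Figure D4:**
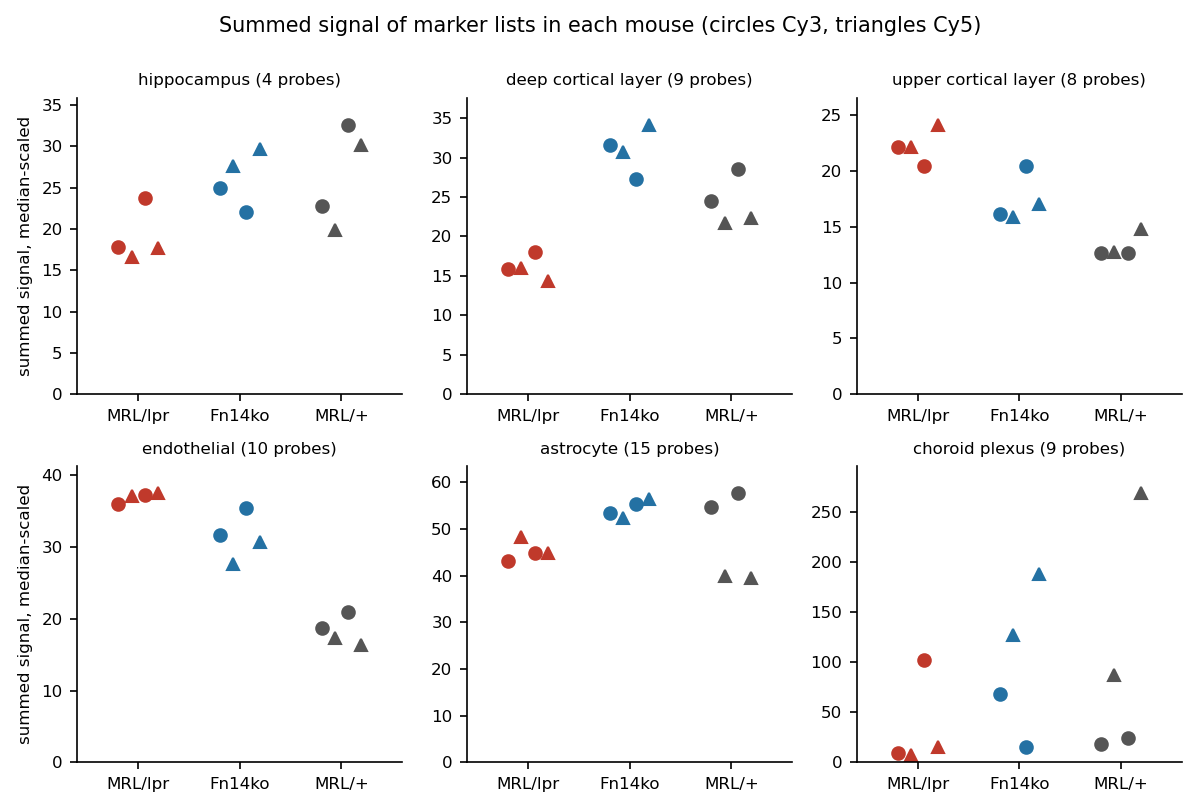
Summed signal of 6 marker lists in each mouse (y axis, from 0) by group, with Cy3 as circles and Cy5 as triangles. In the deep layer list all MRL/lpr mice lie below the other groups, and in the endothelial list both lpr-bearing groups lie above MRL/+. Bright probes weigh most in each sum.

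For the transporter Slco1c1, neither probe passed the threshold in either group. Probe A_55_P2185832 read 1.94, 2.47, 2.41 and 2.45 in MRL/lpr, 2.36, 1.99, 2.15 and 2.31 in Fn14ko, and 1.28, 1.46, 1.67 and 2.27 in MRL/+. In MRL/+, 3 of 4 mice lay below all MRL/lpr and Fn14ko mice, and replicate 4 lay among them. Its log2 difference from MRL/+ was 0.50 ± 0.21 SE (limma adjusted p = 0.106) in MRL/lpr and 0.43 (limma adjusted p = 0.226) in Fn14ko. Probe A_55_P2094831 gave 0.56 ± 0.21 (limma adjusted p = 0.0871) and 0.44 (limma adjusted p = 0.233). The activating deiodinase Dio2 read 8.37, 14.2, 9.01 and 9.38 in MRL/lpr, 12.7, 10.8, 6.01 and 7.23 in Fn14ko, and 6.64, 4.49, 3.99 and 1.81 in MRL/+. Every MRL/lpr mouse was above every MRL/+ mouse, and Fn14ko overlapped both. It was 2.61-fold higher in MRL/lpr than in MRL/+ (log2 fold change 1.39 ± 0.42 SE, limma adjusted p = 0.0416, exact permutation p = 0.0286) and differed by 1.197 ± 0.42 in Fn14ko (limma adjusted p = 0.141). From the Cy3 mice alone the MRL/lpr difference was 0.75 (limma adjusted p = 0.223).

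The inactivating deiodinase Dio3 went the other way. Its signal was 0.142, 0.398, 0.259 and 0.408 in MRL/lpr, 0.338, 0.526, 0.248 and 0.442 in Fn14ko, and 0.446, 1.21, 0.253 and 1.38 in MRL/+. The high MRL/+ values were those of the Cy5 mice, of which replicate 4 was not well above background, and the MRL/+ mouse at 0.253 lay within MRL/lpr. The difference of MRL/lpr from MRL/+ was -1.24 ± 0.37 SE (limma adjusted p = 0.0408), with an exact permutation p of 0.143, and from the Cy3 mice alone it was -0.81 (limma adjusted p = 0.467). Fn14ko differed by -0.82 (limma adjusted p = 0.213). Neither Dio2 nor Dio3 passed the threshold in the Cy3 mice alone.

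Endothelial and astrocyte markers, of the cells that carry Slco1c1 and Dio2, were read beside them. In MRL/lpr 5 of 10 endothelial probes, all of Esam, Flt1 and Ly6c1, were higher than in MRL/+ and none lower. In Fn14ko 3 were higher, and 1 was in the Cy3 mice alone. The summed signal was 36.0 to 37.5 in MRL/lpr, 27.6 to 35.3 in Fn14ko and 16.4 to 20.9 in MRL/+. Flt1 A_55_P2166282, a VEGF receptor of endothelium, was higher by 1.25 (limma adjusted p = 0.00224) in MRL/lpr and by 1.24 (limma adjusted p = 0.00224) in the Cy3 mice alone, where 4 of the 10 probes passed. Cldn5 and Tek differed by 0.80 and 0.31 (limma adjusted p = 0.0823 and 0.503). Tie1, Pecam1 and Cdh5 had differences of -0.05, -0.24 and -0.89 (limma adjusted p = 0.897, 0.548 and 0.103), but these probes were dim. In Fn14ko Cdh5 differed by -1.16 (limma adjusted p = 0.114). In the MRL/+ Cy5 mice the Pecam1 probe read no more than the dark control spots in both, and the Tie1 and Cdh5 probes in 1 each. From the Cy3 mice alone, for MRL/lpr, Tie1 differed by 0.20, Pecam1 by -0.09 and Cdh5 by -0.78 (limma adjusted p = 0.734, 0.917 and 0.402). Blood markers summed to 91.3 to 230 in MRL/lpr, 32.9 to 95.2 in Fn14ko and 24.3 to 46.8 in MRL/+, with 1 of 3 probes higher. Of the 15 astrocyte probes 3 were lower in MRL/lpr (1 of Gfap and 2 of Slc4a4) and none was higher, and of 11 microglia probes 1 was higher and 1 lower. From the Cy3 mice alone 6 of the 15 astrocyte probes were lower, among them each Gfap probe tested, and none was higher. Of the microglia probes 1 was lower there and none higher. The part of these markers in the transporter and deiodinase values was not tested.

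The 3 probes of the receptor Thra gave 3 different answers. Probe A_51_P475995 read 12.6, 7.17, 11.998 and 8.67 in MRL/lpr, 9.19, 8.09, 13.7 and 8.18 in Fn14ko, and 5.11, 1.85, 8.75 and 1.69 in MRL/+. The lowest MRL/+ values were those of the Cy5 mice, and replicate 3 of MRL/+ lay within both other groups. It was higher in MRL/lpr by 1.52 ± 0.39 SE (limma adjusted p = 0.0212, exact permutation p = 0.0857) and differed in Fn14ko by 1.47 ± 0.39 (limma adjusted p = 0.0793). From the Cy3 mice alone the MRL/lpr difference was 0.88 (limma adjusted p = 0.0955). The junction probe A_66_P102879 read 0.6999, 0.411, 0.728 and 0.561 in MRL/lpr, 1.00, 0.628, 0.984 and 0.652 in Fn14ko, and 1.81, 1.03, 1.57 and 0.767 in MRL/+, the last not well above background. All MRL/lpr mice were below all MRL/+ mice, with Fn14ko between and overlapping both. Here MRL/lpr was lower than MRL/+ by 2.09-fold (log2 fold change -1.06 ± 0.18 SE, limma adjusted p = 0.00305, exact permutation p = 0.0286), and from the Cy3 mice alone the difference was -1.24 (limma adjusted p = 0.00196). Fn14ko differed from MRL/+ by -0.62 (limma adjusted p = 0.104).

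Probe A_55_P2065537 of Thra read 2.13, 1.98, 2.10 and 1.82 in MRL/lpr, 1.41, 1.19, 1.28 and 1.47 in Fn14ko, and 1.48, 1.65, 2.43 and 2.78 in MRL/+. The Fn14ko mice were the lowest, and MRL/lpr lay within the MRL/+ range. Its difference from MRL/+ was -0.01 ± 0.22 SE in MRL/lpr (limma adjusted p = 0.984) and -0.59 ± 0.22 in Fn14ko (limma adjusted p = 0.156, exact permutation p = 0.0286). In RefSeq the end of Thra overlaps Nr1d1, and whether any of the probes lies in that stretch was not determined.

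Thrb, the other T3 receptor, did not pass the threshold at either probe. Probe A_52_P877015 read 0.709, 0.449, 0.596 and 0.631 in MRL/lpr, 0.544, 0.594, 0.540 and 0.467 in Fn14ko, and 0.642, 0.721, 0.914 and 0.879 in MRL/+, where the Cy5 mice were not well above background. Fn14ko lay below MRL/+ in every mouse, and the differences were -0.55 ± 0.21 SE (limma adjusted p = 0.171) in Fn14ko and -0.41 ± 0.21 (limma adjusted p = 0.181) in MRL/lpr. Probe A_52_P532559 read 6.99, 23.6, 1.14 and 1.40 in MRL/lpr, 0.813, 0.747, 0.857 and 1.22 in Fn14ko, and 0.878, 1.28, 0.798 and 2.55 in MRL/+. Both high mice were on 1 array, and the other 2 MRL/lpr mice lay within the MRL/+ range. The difference of MRL/lpr from MRL/+ was 1.71 ± 0.75 SE (limma adjusted p = 0.123), and without that array it was 0.04 (limma adjusted p = 0.954).

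The place of this Thrb spot was therefore examined. On the first MRL/lpr array, 226 of 22419 probes read more than 1 log2 unit higher in both mice than in any of the other 10. The rows of their spots had quartiles of 483 and 508 among 532 rows, and their Cy5 signal exceeded their Cy3 signal by 1.63 ± 0.17 (SD) log2 units. The Thrb spot lies at row 477, and 50 of the 191 probes within 10 rows and 10 columns of it read in the same way. The second MRL/lpr array had 155 such probes, with row quartiles of 525.5 and 530.5, and the Fn14ko and MRL/+ arrays had 2, 1, 0 and 0. None of the other 11 probes of the 8 genes was among them on any array, and at most 1 of its neighbours within 10 rows and columns was, so the high Thrb values lie within a band of such spots on 1 array. The search for such spots was made after the Thrb values were seen.

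The target genes Klf9 and Hr differed from each other. Klf9 read 14.001, 12.05, 13.4 and 11.4 in MRL/lpr, 17.7, 17.9, 14.5 and 15.9 in Fn14ko, and 9.96, 8.84, 15.1 and 11.9 in MRL/+. Fn14ko held the 3 highest mice, and MRL/lpr lay within the MRL/+ range. Klf9 differed from MRL/+ by 0.17 ± 0.21 SE in MRL/lpr (limma adjusted p = 0.550) and by 0.55 ± 0.21 in Fn14ko (limma adjusted p = 0.160). Hr read 4.27, 4.01, 4.14 and 3.93 in MRL/lpr, 1.81, 1.68, 1.90 and 0.980 in Fn14ko, and 1.18, 1.45, 0.788 and 0.814 in MRL/+, the last not well above background. All 4 MRL/lpr mice lay above all 8 others and close together, while Fn14ko and MRL/+ overlapped. Hr was 3.99-fold higher in MRL/lpr than in MRL/+ (log2 fold change 2.00 ± 0.28 SE, limma adjusted p = 0.000997, exact permutation p = 0.0286), and from the Cy3 mice alone the difference was 2.12 (limma adjusted p = 0.000186). In Fn14ko it was 0.59 ± 0.28 (limma adjusted p = 0.220).

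Between MRL/lpr and Fn14ko, the contrast of choice, the values are a description. Crym is given above. Hr was higher in MRL/lpr by 1.41 on the log2 scale. Klf9 was lower by 0.38 and Thra A_55_P2065537 higher by 0.59, and at these probes, as at those of Crym and Hr, the mice did not overlap. The remaining probes overlapped, with log2 differences between -0.45 for the Thra junction probe and 2.17 for the Thrb probe in the band of spots.

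Of 38 other thyroid hormone genes, 31 had probes that passed the filter, 49 probes in all. In MRL/lpr 4 of the 49 were higher and 6 lower than in MRL/+, or 20.4% beside 15% of all probes, and their median log2 difference was 0.01. In Fn14ko none was higher and 1 was lower, or 2.04% beside 1.09%, with a median of 0.08. The MRL/lpr count was 5 without MRL/+ replicate 4 (4.58% of all probes), 5 without the first MRL/lpr array (5.77%) and 16 without MRL/+ replicate 3 (33.3%), and it was 6 in the Cy3 mice alone (8.24%).

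Among 5 transporter genes measured, Slco1a4 (Oatp1a4), another thyroid hormone carrier of the blood-brain barrier, was higher. It read 1.85 to 2.39 in MRL/lpr and 0.7002 to 1.41 in MRL/+, a log2 difference of 1.05 ± 0.19 SE (limma adjusted p = 0.00390), and 0.87 (limma adjusted p = 0.0197) in the Cy3 mice alone. In Fn14ko it read 1.46 to 2.37 (limma adjusted p = 0.0517). The lowest MRL/+ value was that of a Cy5 mouse and was no more than the dark control spots. Ttr, the T4 carrier of choroid plexus, ranged from 5.13 to 91.2 in MRL/lpr, 9.54 to 159 in Fn14ko and 12.2 to 249 in MRL/+. That spread within groups is larger than any difference between them (limma adjusted p = 0.363 for MRL/lpr against MRL/+), and the whole choroid plexus list had 1 of 9 probes lower in MRL/lpr.

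Of 24 probes for receptor partners and coregulators, 4 were lower and none was higher in MRL/lpr. Among them were Hdac3, a deacetylase of the corepressor complex (-1.16, limma adjusted p = 0.00404), Tbl1xr1, which also belongs to that complex (-0.68), and the coactivator subunit Med1 (probe A_55_P2024095, where both MRL/+ Cy5 mice read no more than the dark control spots, so that no fold is given). In the Cy3 mice alone Hdac3 differed by -0.99 (limma adjusted p = 0.0286) and Tbl1xr1 by -0.60 (limma adjusted p = 0.110), and Med1 by -0.90 (limma adjusted p = 0.274). Hdac3 was the 1 probe that passed in Fn14ko as well (-1.14, limma adjusted p = 0.0249, and -1.06 with limma adjusted p = 0.0706 in the Cy3 mice alone), and it read 0.423 to 0.556 in MRL/lpr, 0.437 to 0.584 in Fn14ko and 0.791 to 1.45 in MRL/+. Other probes of Tbl1xr1 and Med1 did not pass.

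Among 16 probes for T3-responsive genes of forebrain, 3 were higher and 1 lower in MRL/lpr. The kinase Camk4 (probe A_55_P2097206) read 6.26 to 7.64 in MRL/lpr, 3.33 to 5.77 in Fn14ko and 1.97 to 2.88 in MRL/+, with no overlap between the groups (1.60 against MRL/+, limma adjusted p = 0.00127, and 1.40 with limma adjusted p = 0.00446 in the Cy3 mice alone). The other Camk4 probes differed by -1.49 (limma adjusted p = 0.0556) and 0.56 (limma adjusted p = 0.0790). They were dim, as the first read no more than the dark control spots in 1 MRL/+ Cy5 mouse and the second in both. From the Cy3 mice alone they differed by -0.97 (limma adjusted p = 0.564) and 0.61 (limma adjusted p = 0.196). Sema7a, an axon guidance protein, was higher by 1.121 (limma adjusted p = 0.0215), and in the Cy3 mice alone the difference was 0.69 (limma adjusted p = 0.174). The lower probe was Mbp A_52_P329451, of a myelin protein, at -1.75 on the log2 scale (limma adjusted p = 0.0126, and -2.18 with limma adjusted p = 0.000281 in the Cy3 mice alone). The other Mbp probe differed by -0.75 (limma adjusted p = 0.258), but it read no more than the dark control spots in both MRL/+ Cy5 mice. From the Cy3 mice alone it differed by -0.55 (limma adjusted p = 0.718). Of the hypothalamic and pituitary axis genes, Trhr, the receptor of thyrotropin-releasing hormone, passed as lower in MRL/lpr (limma adjusted p = 0.00265), but its signal was dim in MRL/+, where replicate 4 read no more than the dark control spots. In the Cy3 mice alone its difference was -1.22 (limma adjusted p = 0.0643).

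Across 30 or 31 other ways of processing, no called difference turned its direction. For Crym the log2 difference of MRL/lpr from MRL/+ ranged from -3.39 to -2.10, and it missed the threshold in 2 of 31. For Hr it ranged from 1.64 to 2.59 and missed the threshold in 1 of 30, and the Thra junction probe missed it in 2 of 30. Thra A_51_P475995 missed it in 9 of 31, and Dio2 and Dio3 in 14 each, so these 3 calls depend on the processing.

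**Figure D5:**
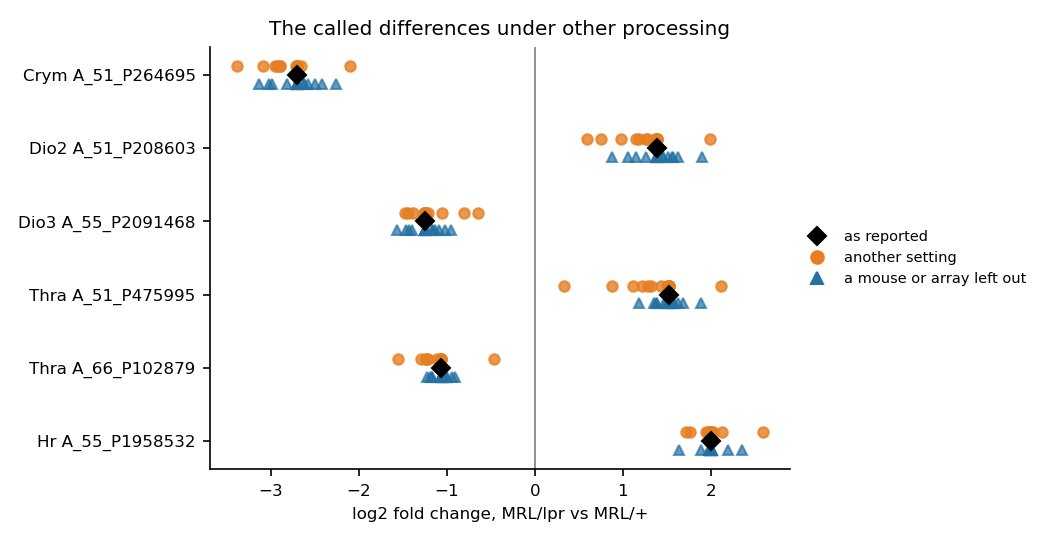
Log2 fold change of MRL/lpr against MRL/+ (x axis) for the 6 called probes as reported (diamonds), under another setting (circles) and with a mouse or array left out (triangles). Crym and Hr lie away from 0 throughout, while the lowest values of Dio2 and Thra A_51_P475995 were 0.59 and 0.33.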

How the data were processed

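Cortex RNA of 12 mice was hybridized to 6 Agilent two-color arrays of 60-base probes. The deposited scanner files give, per spot and channel, the mean foreground and median local background intensity, quality marks and a processed signal. The authors scanned and extracted the spots with Agilent Feature Extraction, whose version by the file headers was 12.1.0.3. Of 44397 spots, 43020 were not controls. Spots marked as uneven or outliers (1952) and spots under 2 times background in any of 12 channels (17781) were left out, which retained 22419 probes for 17302 genes. Background was corrected with normexp (offset 50) in limma 3.58.1 under R 4.3.3, channels were divided by the median, and spots of 1 probe were averaged. Single probes were fitted on the log2 scale with group, dye and a random array block (correlation 0.325), with a trend in variance. Tests were 2-sided, adjusted by Benjamini-Hochberg over all probes at 0.05. Single values were also tested exactly over the 70 splits of 8 mice, which take no account of array or dye. The 6 arrays set the precision; the standard error of a log2 difference had a median of 0.27 over all probes.

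The genes and lists were chosen with earlier results of these data known. Named were all members, the listed thyroid hormone genes past the threshold (at most 12, some of which are not reported here), and the 5 genes nearest to Crym. Marker lists were astrocyte, endothelial, cortical excitatory neuron, deep and upper cortical layer, striatum, hippocampus, choroid plexus, cerebellum, microglia and blood. Alternatives were background subtraction, the processed signal, loess with Aquantile, the 75th percentile, no filter on dim spots, spots well above background in all 12 channels, marked spots retained, no dye term, no array block, a replicate block, only the groups compared, gene means, the methods' t-test, each mouse or array left out and, added after the data were seen, the Cy3 mice only. The fit was tested on simulated data. Python 3.11.15, pandas 2.3.3, numpy 2.4.6 and matplotlib 3.10.9 were used.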

Additional observations from a re-analysis of the deposited data

Results flagged for a closer look

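The Slco1c1 probe A_55_P2185832 had 1 MRL/lpr mouse, replicate 1, far from the other 3: it read 1.94 against 2.41 to 2.47, a gap of 0.894 of the group's range, above the limit of Dixon's test for 4 samples. Of 36 groups of 4 mice tested over the 12 probes this was the only one past the limit, where chance flags about 1 in 20.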

How the results depend on the processing

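The count of member probes that differed between MRL/lpr and MRL/+ was 6 as reported (15% of all probes). It was 0 without the filter on dim spots (0.0414%). With only spots well above background in all 12 channels it was 3 (29.4%), where Hr, Dio3, Thra A_66_P102879 and Thrb A_52_P877015 had no value. The count was 3 with the Cy3 mice only (8.24%). By the methods' t-test it was 5 unadjusted (25%) and 1 after Benjamini-Hochberg, where the share over all probes was not counted. Leaving out a mouse or an array gave 3 to 7, with 3 without MRL/+ replicate 4 (4.58%) and 3 without the first MRL/lpr array (5.77%). For Fn14ko against MRL/+ it was 0 as reported, 4 with background subtraction, 1 with the processed signal, 3 with loess and Aquantile, 2 with the 75th percentile, 2 with spots well above background, 3 without the array block, 1 with only the groups compared and 4 by the t-test unadjusted; leaving out a mouse or an array gave 0 to 2. The thyroid hormone list had 10 called probes in MRL/lpr as reported (15% of all probes). It had 19 with background subtraction (31.6%), 21 with loess and Aquantile (34.2%) and 0 without the dim filter (0.0414%). There were 18 without the array block (31.7%), 6 with the Cy3 mice only (8.24%) and 2 by the adjusted t-test, where that share was not counted. Leaving out a mouse or an array gave 5 to 16. The count was 5 without MRL/+ replicate 4 (4.58%), 5 without the first MRL/lpr array (5.77%) and 16 without MRL/+ replicate 3 (33.3%). In Fn14ko it had 1 as reported, 14 with background subtraction, 4 with the processed signal, 8 with loess and Aquantile and 2 with the 75th percentile. It had 0 without the dim filter, 4 with spots well above background, 7 without the array block and 2 with only the groups compared. By gene means it had 2 (0.954% of all genes tested), and by the t-test 14 before adjustment (15.7% of all probes) and 0 after. It ranged from 0 to 8 when a mouse or an array was left out (8 without MRL/+ replicate 3). The share of all probes moved as well: for Fn14ko it was 1.09% as reported, 19.6% with background subtraction, 6.29% with the processed signal, 10.4% with loess and Aquantile, 3.96% with the 75th percentile, 12.4% with spots well above background, 12.9% without the array block, 2.63% with only the groups compared and 15.6% without MRL/+ replicate 3, and for MRL/lpr it ran from 0.0414% without the dim filter to 34.2% with loess and Aquantile. The cause of these changes was not tested.

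Same-numbered mice share the dye. The correlation of their deviations from the group means was 0.0887 to 0.345 in MRL/lpr and MRL/+ and -0.0312 to 0.721 in Fn14ko and MRL/+, not over 0.1 in every pair, and the number was not taken as a pairing. About group and dye means it was 0.382 to 0.808 in Fn14ko and MRL/+, where 2 mice to a dye leave 1 deviation a dye. With the replicate block 8 member probes and 18 of the list were called in MRL/lpr, and 3 and 7 in Fn14ko, with 33.7% and 8.81% of all probes. The Crym difference of MRL/lpr from MRL/+ lost its call without the dim filter (-2.10, limma adjusted p = 0.147) and by the adjusted t-test (-2.66), and it ranged from -3.13 to -2.26 when a mouse or an array was left out. Hr lost its call without the dim filter (2.59, limma adjusted p = 0.0846). Against Fn14ko, Crym ranged from -3.45 to -2.58 when a mouse or an array was left out and from -3.20 to -2.496 over the other settings. The 75th percentile moved the median of all probes in MRL/lpr against MRL/+ from -0.15 to -0.38, and the share of higher among called probes from 38% to 22.1%; it was 25.1% with loess and Aquantile and 81.2% without the dim filter, where 16 probes were called.

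Directions that turned were those of uncalled differences. Thra A_55_P2065537 in MRL/lpr turned to 0.10 with the processed signal, 0.59 without the dim filter and 0.16 in the Cy3 mice, and ranged from -0.37 to 0.36 (0.0274 without the second MRL/lpr array and 0.0924 without MRL/+ replicate 4) when a mouse or an array was left out; in Fn14ko it was 0.13 without the dim filter. Thra A_66_P102879 in Fn14ko was 0.11 without the dim filter. Thrb A_52_P877015 turned to 0.57 in MRL/lpr and 0.24 in Fn14ko with the processed signal and to 0.19 and 0.18 without the dim filter, and Thrb A_52_P532559 in Fn14ko to 0.26. Klf9 in MRL/lpr turned to -0.23 with loess and Aquantile, -0.059 with the 75th percentile and -0.027 with spots well above background, and ranged from -0.084 to 0.43 when a mouse or an array was left out. Crym in Fn14ko turned to -0.27 with the processed signal and -0.46 in the Cy3 mice, and ranged from -0.011 to 0.59 when a mouse or an array was left out. Hr, Dio3, Thra A_66_P102879 and Thrb A_52_P877015 had no value with only spots well above background in all 12 channels. The dim MRL/+ Cy5 channels limit what can be said of low signals.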
